A study of Mus musculus with 8 samples.

Results

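The Krüppel-like factors (KLFs) are a family of DNA-binding proteins that share a block of zinc fingers at the C terminus and bind GC-rich and CACCC sequences. The genes described here are Klf2, Klf3, Klf4, Klf5, Klf6, Klf7, Klf9, Klf10, Klf11 and Klf13. They were chosen by name, as 10 of the 53170 named genes of a bulk RNA-seq count table. Of these 10, 9 passed the low-count filter, which kept 14058 genes for testing, and Klf2 did not.

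The libraries come from organoids grown from the epithelium of the hindstomach (glandular stomach) of mouse embryos at embryonic day 18.5 and kept for 5 days in growth medium. The 4 control libraries have the genotype Shh-Cre, and the 4 YAP5SA libraries are labelled Shh-Cre;YAP5SA, so both groups carry the Cre recombinase, which the Shh gene's regulatory sequences drive in foregut epithelium. YAP5SA is a form of the coactivator YAP that the Hippo kinases cannot restrain. Whether libraries of 1 group stem from different embryos or cultures is not stated in the labels, so the p-values reflect the spread among these libraries alone, and that spread may be technical.

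In barrier epithelia the KLFs are best known through Klf4 and Klf5. Klf4 is expressed in differentiating cells, restrains the cell cycle and is needed for normal differentiation of mucous cells in colon and stomach, while Klf5 is expressed in dividing progenitors and favours proliferation, and both compete for similar DNA sites. The remaining members are sorted by the cofactors they recruit. Klf2, Klf6 and Klf7 act, like Klf4 and Klf5, mainly as activators through histone acetyltransferases, Klf3 represses through the corepressor CtBP, and Klf9, Klf10, Klf11 and Klf13 repress through the Sin3A complex.

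Promoter sequences of 8 of the 10 members, as RefSeq gives them on GRCm38.p6, were available, without Klf5 and Klf10. The 250 bases before the transcription start are shown for the member that rose most (Klf4), for the member that fell most (Klf11) and, outside the 10, for the relative with the next largest rise (Klf12). They run 5′ to 3′ along the gene's strand, at chr4:55532476-55532725 (minus strand), chr12:24651121-24651370 (plus strand) and chr14:100149797-100150046 (minus strand). Capitals mark the GC box GGGCGG, the CACCC box CACCC and the core site of the YAP partners TEAD, GGAATG, each on either strand.
Klf4: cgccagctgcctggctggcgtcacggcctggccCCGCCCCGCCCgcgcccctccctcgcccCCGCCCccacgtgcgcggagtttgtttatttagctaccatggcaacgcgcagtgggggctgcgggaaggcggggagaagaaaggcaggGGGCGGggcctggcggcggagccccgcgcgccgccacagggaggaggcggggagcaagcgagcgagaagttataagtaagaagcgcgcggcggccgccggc
Klf11: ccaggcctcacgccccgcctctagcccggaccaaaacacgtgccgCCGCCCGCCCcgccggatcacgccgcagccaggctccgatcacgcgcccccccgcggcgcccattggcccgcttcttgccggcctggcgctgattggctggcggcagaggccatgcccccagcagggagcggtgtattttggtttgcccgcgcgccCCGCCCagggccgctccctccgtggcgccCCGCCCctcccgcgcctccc
Klf12: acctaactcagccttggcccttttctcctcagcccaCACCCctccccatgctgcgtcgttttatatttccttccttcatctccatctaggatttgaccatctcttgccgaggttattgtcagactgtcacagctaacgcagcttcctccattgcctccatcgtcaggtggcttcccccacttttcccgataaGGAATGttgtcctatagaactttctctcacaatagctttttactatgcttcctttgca

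Over the full window of 300 bases, which ends 50 bases after the start, Klf4 and Klf11 each held 4 GC boxes, some of them overlapping, and none of the other motifs. A GC box was found in 7 of the 8 member windows (all but Klf9) and in 35.7% of the 32851 promoter windows of the table. Member windows are rich in G and C, with 74.3% in Klf4 and 77.7% in Klf11 against a median of 52.7% over the table. The CACCC box was in 5 of 8 member windows and in 57.5% of all, and GGAATG in 0 of 8 and in 14.7% of all, while Klf12 held 1 GGAATG and 1 CACCC box in a window of 45.7% G and C. These matches describe the letters of the windows and not binding.

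Total counts ran from 13672268 to 19710648 per library. Levels are given as CPM, read counts brought to 1 shared library size by TMM scaling, and fold changes compare YAP5SA with control, with p from edgeR's quasi-likelihood test adjusted over all tested genes by Benjamini-Hochberg and calls at 0.05. The epithelial markers Epcam, Cdh1, Krt8, Krt18 and Krt19 were high in every library (7452 to 7977 CPM summed in controls, 6147 to 6405 in YAP5SA). Gastric markers were not. Cldn18, Gata4, Sox2, Pgc, Tff1 and Gkn1 summed to between 2119 and 2246 CPM in controls and between 68.3 and 71.7 in YAP5SA. Of the 6, 5 were called lower and Sox2 higher, where 25.5% of all tested genes were called lower and 23.6% higher. Yap1 had 160 ± 7.22 CPM in controls and 153 ± 4.16 in YAP5SA (log2 fold change −0.06, adjusted p = 0.339, edgeR), and whether reads of the transgene were counted under Yap1 is not given in the sources used here, so this gene does not check the labels. The groups also differed in sex, with Xist between 676 and 1049 CPM in controls and between 0.412 and 2.76 in YAP5SA, and the Y-linked Ddx3y at 0 to 0.325 and 68.2 to 75.6 CPM. Genotype and sex cannot be told apart in any result given here. In bulk RNA a change in the cells present and a change in RNA per cell cannot be told apart either.

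Of the 9 tested members, 3 rose in YAP5SA (Klf4, Klf10 and Klf13), 2 fell (Klf11 and Klf6) and 4 did not pass the test (Klf3, Klf5, Klf7 and Klf9). That is 5 of 9, where 49.1% of all tested genes were called, 23.6% higher and 25.5% lower. The groups did not overlap in 5 members, and in 45.7% of all tested genes. The median log2 fold change of the 9 was 0.03, and the median size 0.19 regardless of direction, against 0.00 and 0.26 over all tested genes. Changes that were both called and at least 2-fold were seen in Klf4 and Klf11, and in 13.8% of all tested genes.

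**Figure D1:**
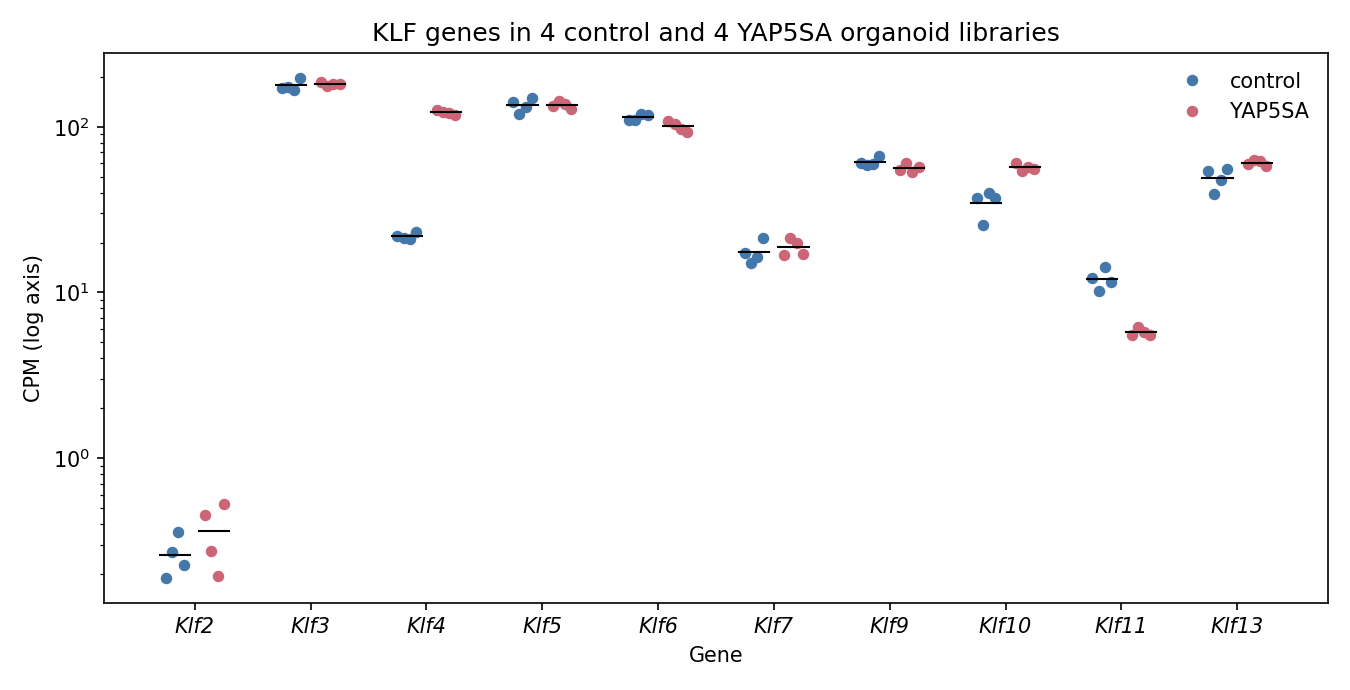
CPM of the 10 KLF genes (log axis) in 4 control and 4 YAP5SA libraries, each point a library and each black line the mean of a group. Klf4 lay between 21.1 and 23.3 CPM in controls and between 118 and 126 CPM in YAP5SA, Klf11 fell below its lowest control, and Klf5 overlapped.

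Klf4, on chromosome 4, was the member with the largest change. It measured 21.8, 21.3, 21.1 and 23.3 CPM in controls 1 to 4 and 126, 123, 121 and 118 CPM in YAP5SA 1 to 4. All YAP5SA libraries lay far above all controls, and the libraries of a group differed little. The rise was 5.59-fold (log2 fold change 2.48 ± 0.06 SE, 95% interval of the fold 5.12 to 6.11, adjusted p = 5.9e-16, edgeR), and 1.37% of tested genes had a higher log2 fold change. Between 310 and 414 reads were counted per control and between 1882 and 2223 per YAP5SA library. The coefficient of variation of Klf4, 4.45% in controls and 2.92% in YAP5SA, was close to that of read counting alone, 5.23% and 2.23%.

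Klf5, on chromosome 14, did not pass the test. Its levels were 141, 120.2, 131 and 149 CPM in controls and 134, 142, 137 and 128 CPM in YAP5SA. The 4 YAP5SA libraries fell within the range of the controls. The means were 135 ± 12.5 and 135 ± 5.86 CPM (SD, n = 4 each), the log2 fold change was 0.00 ± 0.06 SE (adjusted p = 0.988, edgeR), and the 95% interval of the fold ran from 0.912 to 1.10.

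The ratio of Klf4 to Klf5 was higher in every YAP5SA library than in any control. Per length of exon, the ratio of Klf4 to Klf5 was 0.263, 0.303, 0.274 and 0.266 in controls and 1.61, 1.47, 1.5 and 1.56 in YAP5SA. The groups were far apart, and the log2 ratio rose from −1.86 ± 0.09 to 0.62 ± 0.06 (SD, n = 4), a difference of 2.48. A two-sided exact permutation test over the libraries gave p = 0.0286, the smallest that 4 against 4 allow. With log2 fold changes of 2.48 for Klf4 and 0.00 for Klf5, the ratio restates the rise of Klf4. Its p follows from the separation already seen in Klf4 and adds no further support. The change of the ratio does not depend on the gene lengths, but its level does.

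Among the other activators, Klf6 fell slightly. Klf6, on chromosome 13, is an early response gene of wounded and stressed epithelium. It measured 109.9, 109.9, 120.2 and 118 CPM in controls and 108, 104, 96.7 and 93.5 CPM in YAP5SA. The groups did not overlap, but the highest YAP5SA library and the lowest control lay close together. The log2 fold change was −0.19 ± 0.06 SE (adjusted p = 0.0125, edgeR), and without YAP5SA 4 it no longer passed (−0.16, adjusted p = 0.051, edgeR).

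Klf7, known from neuronal differentiation and located on chromosome 1, was low and overlapped. It ranged from 15 to 21.3 CPM in controls and from 16.7 to 21.2 CPM in YAP5SA (log2 fold change 0.11 ± 0.11 SE, 95% interval −0.13 to 0.35, adjusted p = 0.462, edgeR). Klf2, a factor of endothelium and lymphocytes on chromosome 8, had between 3 and 7 counts per control library and between 3 and 9 per YAP5SA library, 18 and 24 counts in all. Of the markers of those cell types, Pecam1 was at most 0.325 CPM, Cdh5 at most 0.075 and Cd3e at most 0.129, while the endothelial Tek was higher in controls (6.13 to 13.1 CPM) and Tie1 in YAP5SA (1.22 to 2.12 CPM). A difference in Klf2 was not detectable at this depth.

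Of the CtBP-binding repressors, Klf3, on chromosome 5, was the only one among the 10. Its levels were 172, 174, 167 and 197 CPM in controls and 186, 175, 182 and 182 CPM in YAP5SA. The groups overlapped, with control 4 the highest of all 8 libraries. The log2 fold change was 0.03 ± 0.06 SE (95% interval −0.08 to 0.15, adjusted p = 0.652, edgeR).

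The Sin3A-binding repressors moved in both directions. Klf10, on chromosome 15, is induced early by TGF-beta. It measured 37.1, 25.5, 39.6 and 37.4 CPM in controls and 60.2, 54.1, 57.5 and 55.4 CPM in YAP5SA. Control 2 was the lowest, and all YAP5SA libraries lay above all controls. The rise was 1.63-fold (log2 fold change 0.71 ± 0.11 SE, adjusted p = 4.8e-05, edgeR), and 8.79% of tested genes had a higher log2 fold change.

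Klf11, a close relative of Klf10 on chromosome 12, went the other way. It measured 12.2, 10.2, 14.2 and 11.6 CPM in controls and 5.50, 6.18, 5.79 and 5.54 CPM in YAP5SA. No YAP5SA library reached the lowest control. Klf11 was 2.09-fold lower (log2 fold change −1.07 ± 0.13 SE, 95% interval −1.33 to −0.80, adjusted p = 1.58e-06, edgeR), and 8.07% of tested genes had a lower log2 fold change. Its values rest on 155 to 278 reads per control and 85 to 112 per YAP5SA library.

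Klf13, on chromosome 7, rose by less. It measured 54.1, 39.0, 47.9 and 56.0 CPM in controls and 59.6, 62.7, 62.2 and 58.1 CPM in YAP5SA. The groups did not overlap, although controls 1 and 4 came close to the YAP5SA libraries, and control 2 was again the lowest. The rise was 1.24-fold (log2 fold change 0.31 ± 0.09 SE, adjusted p = 0.00976, edgeR). Without control 2 it was smaller but still passed (log2 fold change 0.20, adjusted p = 0.0238, edgeR).

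Klf9, a hormone-induced factor on chromosome 19, had 60.4, 58.8, 59.2 and 67.0 CPM in controls and 54.7, 60.1, 53.4 and 56.8 CPM in YAP5SA. YAP5SA 2 lay among the controls. The log2 fold change of −0.12 ± 0.06 SE did not pass the test (adjusted p = 0.129, edgeR).

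**Figure D2:**
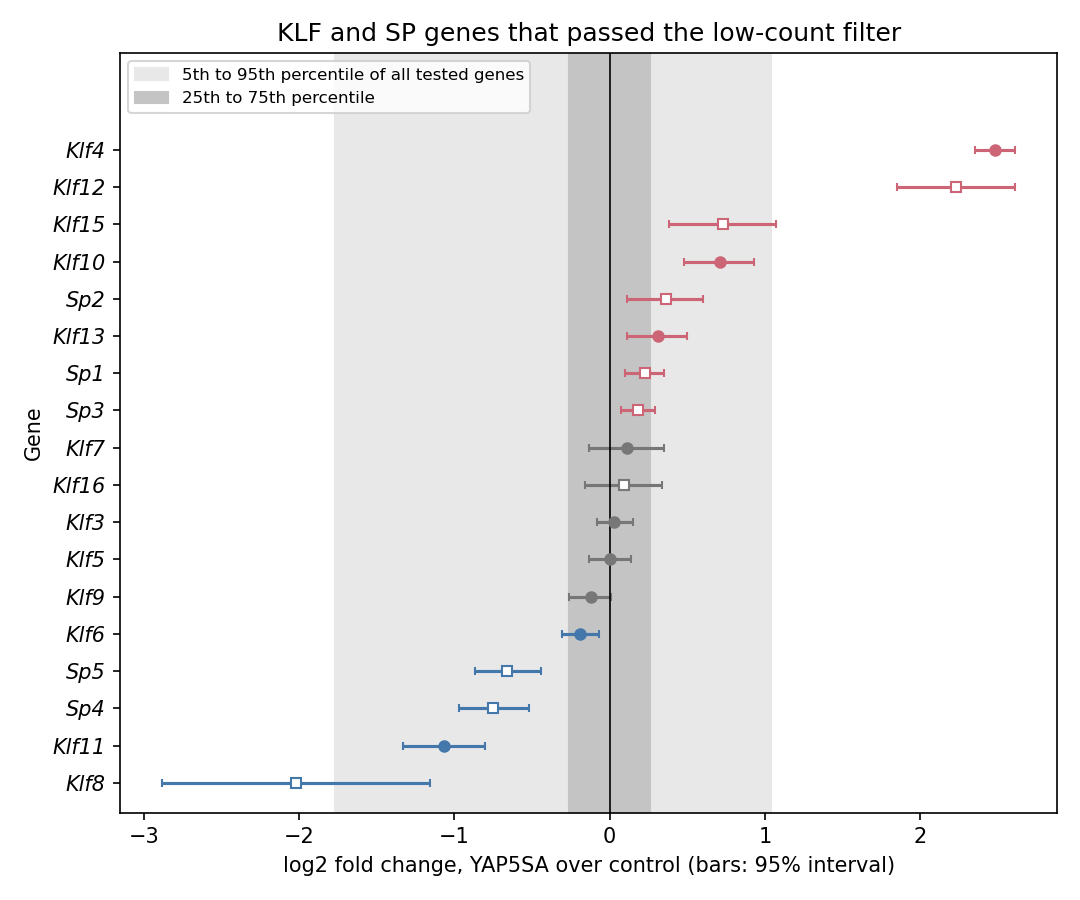
Log2 fold change of YAP5SA over control with its 95% interval for the 18 tested KLF and SP genes, circles for the 9 tested members and open squares for the 9 other genes, red where called higher, blue where called lower and grey where not past the test. Shading spans the 5th to 95th (−1.77 to 1.04) and 25th to 75th percentiles of all tested genes, with Klf4 (2.48) and Klf12 (2.23) above the wider span and Klf8 (−2.02) below it.

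Levels were compared between members per length, as CPM per kilobase of the union of annotated exons (GENCODE M21, not the annotation used for counting). In controls the highest were Klf6 (26.1 ± 1.21) and Klf5 (26.0 ± 2.40), whose ranges overlapped, followed by Klf3 (15.8 ± 1.18), Klf9 (12.7 ± 0.80) and Klf10 (8.34 ± 1.53). Klf4 (7.17 ± 0.32) was the sixth, not separated from Klf10 above it or Klf13 (6.54 ± 1.01) below it, and Klf11 (2.78 ± 0.37), Klf7 (2.15 ± 0.33) and Klf2 (0.141 ± 0.039) were the lowest, with Klf11 and Klf7 overlapping.

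In YAP5SA Klf4 was first by this measure, at 40.0 ± 1.17 CPM per kilobase, ahead of Klf5 (26.0 ± 1.13), Klf6 (22.9 ± 1.48), Klf3 (16.1 ± 0.41), Klf10 (13.6 ± 0.64), Klf9 (11.7 ± 0.61) and Klf13 (8.06 ± 0.29). Klf7 (2.30 ± 0.27) and Klf11 (1.33 ± 0.07) had changed places, and Klf2 was last. No ranges of neighbours in this order overlapped. The summed per-length level of the 10 members was 108 ± 7.31 in controls and 142 ± 3.74 in YAP5SA, and Klf4 made up 6.67% ± 0.31 and 28.1% ± 0.27 of it (SD, n = 4). In CPM, Klf4 gained 100.1 CPM on average, while the members' summed mean went from 625 to 738 CPM.

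The order depends on the length used. With the longest coding transcript in place of the union of exons, a choice made after the values were seen, Klf4 went from the seventh to the second place, and Klf5 and Klf4 stood side by side in YAP5SA at 40.4 and 40.3 CPM per kilobase. The share of Klf4 was then 4.92% in controls and 21.9% in YAP5SA. Klf3 then stood above Klf6, at 34.0 against 27.1 CPM per kilobase in controls and 34.8 against 23.8 in YAP5SA. These counts therefore give no order of Klf4 and Klf5 in YAP5SA, nor of Klf3 and Klf6 in either group.

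**Figure D3:**
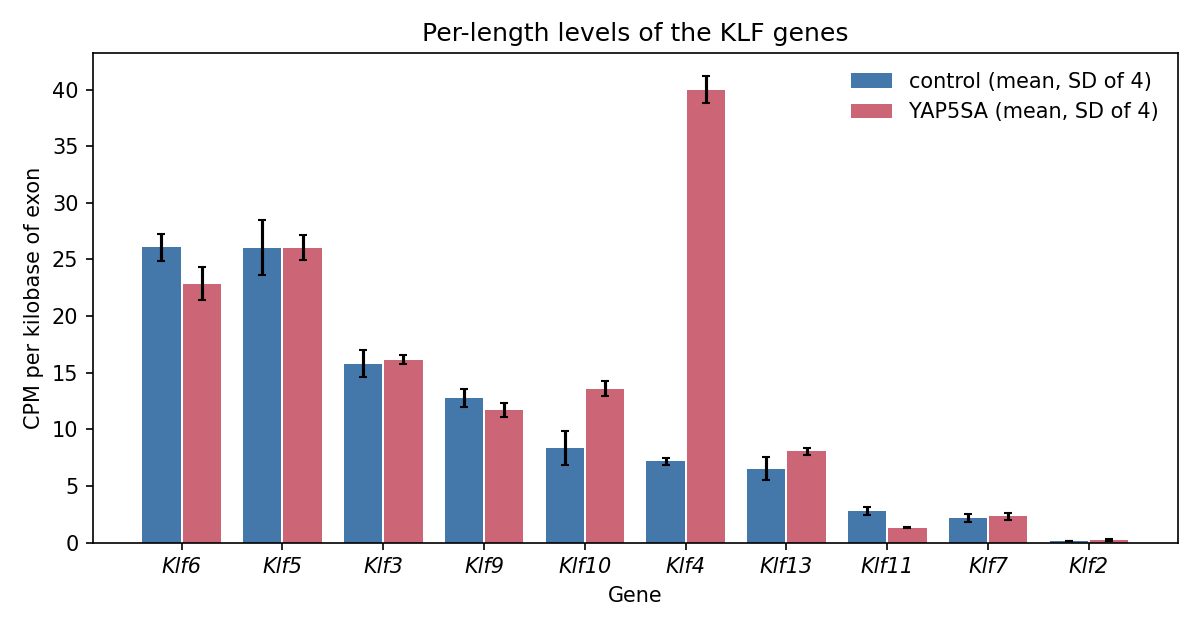
CPM per kilobase of exon (union of GENCODE M21 exons) of the 10 KLF genes, bars the mean and error bars the SD of 4 libraries, in control order. Klf4 is the sixth bar pair in controls, at 7.17, and the highest in YAP5SA, at 40.0, while Klf5 stands at 26.0 in both groups.

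The other 7 KLF genes and the 9 SP factors, which share the zinc finger block, are the family outside the 10. Of these 16, 9 were tested, 5 rose, 3 fell and 1 did not pass, where 23.6% of all tested genes were called higher and 25.5% lower. Klf12 and Klf8 repress through CtBP like Klf3. Klf12 measured 4.36, 3.14, 2.39 and 5.70 CPM in controls and 16.8, 17.8, 18.1 and 18.6 CPM in YAP5SA, well apart from each other. It rose 4.70-fold (log2 fold change 2.23 ± 0.18 SE, adjusted p = 2.22e-08, edgeR), and 1.64% of tested genes had a higher log2 fold change.

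Klf8, which is X-linked, had 14 to 31 reads per control library and 3 to 9 per YAP5SA library. Its mean fell from 1.24 ± 0.32 CPM to 0.303 ± 0.166 CPM, a log2 difference of −2.02 ± 0.41 SE (adjusted p = 0.000491 by edgeR). The 3 CtBP-binding genes thus had log2 fold changes of 2.23 (Klf12), 0.03 (Klf3) and −2.02 (Klf8). Klf15, a regulator of metabolism, rose from 3.47 ± 0.44 to 5.77 ± 0.70 CPM (log2 fold change 0.73), and Klf16, a Sin3A-binding repressor, did not pass the test (0.09). Klf1, Klf14 and Klf17 had at most 10 counts in any library.

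Among the SP factors, the widely expressed Sp1 rose from 169 ± 14.0 to 197 ± 9.36 CPM (log2 fold change 0.23), Sp3 from 103 ± 3.19 to 116 ± 3.97 (0.18) and Sp2 from 7.60 ± 0.59 to 9.72 ± 0.66 (0.36). Sp2 no longer passed without YAP5SA 1 (adjusted p = 0.0552, edgeR). Sp4 fell from 13.9 ± 0.57 to 8.33 ± 0.76 CPM (−0.75). Sp5, a Wnt target, fell from 62.7 ± 9.17 to 39.6 ± 4.80 CPM (−0.66). All 5 had groups that did not overlap, as did 45.7% of all tested genes. Sp6, Sp7, Sp8 and Sp9 had at most 3 counts in any library.

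Of 11 cofactors and regulators of KLF proteins, 2 rose, 2 fell and 7 did not pass, beside 49.1% of all tested genes called. Ctbp2, the corepressor partner of Klf3, Klf8 and Klf12, rose from 77.8 ± 2.52 to 93.9 ± 2.08 CPM (log2 fold change 0.27), while its paralog Ctbp1 had 158 ± 2.86 and 159 ± 8.97 CPM. Hdac1, a deacetylase of the Sin3 complex, fell from 157 ± 9.99 to 133 ± 6.88 CPM (−0.24). Wwp1, a ubiquitin ligase that targets Klf2 and Klf5, fell from 87.8 ± 2.70 to 72.9 ± 4.88 CPM (−0.27). Sin3a rose by 0.17 on the log2 scale (adjusted p = 0.027, edgeR), and no longer passed without any 1 of controls 1, 2 and 3 or YAP5SA 2 and 3 (adjusted p between 0.0698 and 0.0934, edgeR).

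Genes reported elsewhere as KLF targets were lower more often than higher. Of 18 listed, 15 were tested, 11 fell, 3 rose and 1 (Tgfb1) did not pass, while 25.5% of all tested genes were called lower and 23.6% higher. They had a median log2 fold change of −0.40 against 0.00 over all tested genes. The list pools targets of different KLFs, and genes known to be activated with genes known to be repressed. Its counts and median therefore do not measure the activity of KLF proteins. Cdkn1a, a cell cycle inhibitor gene known as a target of Klf4 and Klf6, fell from 297 ± 12.8 to 157 ± 11.3 CPM (−0.92). Ivl, which encodes involucrin, fell from 31.4 ± 2.25 to 3.04 ± 0.28 CPM (−3.36), and Pdgfa, a growth factor gene known as a Klf5 target, from 29.8 ± 2.97 to 5.49 ± 0.57 CPM (−2.44). Plaur, the urokinase receptor gene, fell from 45.2 ± 2.67 to 18.4 ± 2.76 CPM (−1.30). The 3 that rose, named after their values were seen, were Krt4 (3.03), Smad7 (1.03) and Ccnb1 (0.50). Alpi, Nos3 and S1pr1 were too low to test.

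Several KLFs belong to inducible programs, whose other genes are given beside them. Klf9 is a classical glucocorticoid target, and of 5 other glucocorticoid response genes the 4 tested all rose (23.6% of all tested genes did), Sgk1 from 19.2 ± 2.62 to 52.1 ± 9.68 CPM, Fkbp5 from 60.9 ± 1.79 to 158 ± 8, Tsc22d3 from 7.58 ± 1.46 to 15.4 ± 1.83 and Per1 from 18.6 ± 3.65 to 30.2 ± 1.26, while Zbtb16 had a single read. Klf9 itself, as given above, did not pass. The median log2 fold change of the 4 was 1.20.

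Klf10 rose. Of the TGF-beta response genes reported here, Pmepa1 (−4.84) and Skil (−0.59) fell, and Smad7, the inhibitory SMAD gene that Klf10 and Klf11 are known to repress, rose from 3.88 ± 1.09 to 7.91 ± 0.32 CPM. Klf2, Klf4, Klf6 and Klf10 are also known as immediate early genes. Of 11 other tested immediate early genes, 2 rose, 5 fell and 4 did not pass (23.6% and 25.5% of all tested genes rose and fell), with Atf3 (−1.88), Jun (−1.29) and Ier3 (−0.34) lower and Egr1 (0.35) higher. The median of these 11 was −0.18.

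Markers of other cell types moved between the groups at low levels. Summed endothelial markers were 6.57 to 13.8 CPM in controls and 1.29 to 2.83 in YAP5SA. The 2 tested ones went in opposite directions, Tek from 8.88 ± 2.98 to 0.317 ± 0.259 CPM and Tie1 from 0.0429 ± 0.0528 to 1.65 ± 0.38 CPM. Immune markers summed to 18.8 to 38.2 and 9.19 to 10.4 CPM. Of the 2 tested, Cd68 fell from 28.6 ± 7.97 to 7.88 ± 1.15 CPM and Csf1r rose from 0.191 ± 0.074 to 1.49 ± 0.60 CPM. Mesenchymal markers summed to at most 4.17 and 1.71 CPM, the squamous basal markers Krt5, Krt14 and Trp63 to at most 1.30 and 0.11 CPM, erythroid markers to at most 0.675 and 0.497 CPM, and enteric neural markers to at most 10.1 and 4.01 CPM. Lum, Hba-a2 and Sox10 had no read in any library. The part of such cells in the KLF values was not tested.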

How the data were processed

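Total RNA of the organoids was sequenced from both fragment ends (150 bp each), per the labels' protocols. The values are raw read counts, as the authors deposited them. The submitters' processing notes name cutadapt, HISAT2 2.0.1, HTSeq 0.6.1 and mm9. How strand was handled, which annotation release was used and how reads were assigned is not given in the sources used here, and reads from overlapping genes or from antisense partners cannot be separated. No coordinates of mm9 are printed, and chromosomes, exon lengths (all 26 KLF and SP genes matched by symbol) and promoters come from GRCm38 annotations.

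Of 56691 rows, 2639 without a gene name (0.19% to 0.221% of a library's counts) were left out, and rows sharing a symbol were summed. Genes were kept by filterByExpr (minimum count 10, minimum total 15). TMM factors were applied, and genotype was tested as a single term by the quasi-likelihood F-test of edgeR 4.0.16 (glmQLFit, robust, and glmQLFTest) under R 4.3.3. Standard errors are the log2 fold change over the square root of F. The biological coefficient of variation was 7.97%. On simulated counts for YAP5SA against control, with 14016 genes tested, the test recovered 79.1% of 1.5-fold, 95.5% of 2-fold and 98.5% of 4-fold changes. These are shares of the genes given a change, not of all genes tested, and 12 unchanged genes were called. The number of genes given a change is not reported here, so the precision of these shares is not known. Alternatives were DESeq2 1.42.0, RLE or library-size scaling, no filter, a replicate block, a threshold of 0.01, the largest row per symbol, and leaving out each library.

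The 10 genes, the lists and the tests were chosen with earlier results of these data known. The text names all members and all tested KLF and SP genes, up to 4 called genes with the smallest adjusted p of each other list, and members at 0, except for a few genes of these lists that are not reported here. Smad7, Cdh1 and Krt19 stand in 2 lists each. Counting intervals and floors cover counting error only.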

Additional observations from a re-analysis of the deposited data

How the results depend on the processing

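Of 144 log2 fold changes and ratios under the alternatives, 137 kept their direction and their side of the threshold. Of 75 counts of calls, 73 stayed within 1.5 times the reported count. The threshold of 0.01 reused the main fit, and library-size scaling cancels in the ratio of Klf4 to Klf5. No direction could change in those entries, which count among the 137 or the 144. The count of other KLF and SP genes that rose was 4 in place of 5 at a threshold of 0.01 and without YAP5SA 1. Klf4 ranged from 2.46 to 2.51 over all 15 alternatives, Klf10 from 0.57 to 0.77, Klf11 from −1.14 to −0.98 and Klf13 from 0.20 to 0.38, and all 4 passed in each. The call of Klf6 (−0.19, adjusted p = 0.0125, edgeR) was lost at a threshold of 0.01, which left 1 member lower. Leaving out 1 library at a time, Klf6 ranged from −0.23 to −0.16 and the count of lower members from 1 to 2. The uncalled Klf5 and Klf3 changed sign around 0 when libraries were left out, with ranges of −0.06 to 0.05 and −0.0013 to 0.09. The log2 ratio of Klf4 to Klf5 changed by 2.45 to 2.52 without 1 library, with the smallest p that 3 against 4 libraries allow each time. These p-values follow from the full separation of the ratios in all libraries and add no further support. The replicate numbers showed no clear pairing of the libraries (correlations of deviations −0.08 to 0.09 for equal numbers). For replicate 3 (0.09) the library of equal number was the best match in both directions. This held in 1 direction for replicate 4 and in neither for replicates 1 and 2. With a replicate block, 6586 genes were called in all against 6899, Klf6 passed at −0.19 (adjusted p = 0.0307, edgeR), and no member's call changed. Klf2 had a log2 fold change of 0.46 without the filter (adjusted p = 0.631, edgeR). At 85 to 112 reads per YAP5SA library Klf11 had a counting error of 10.2%.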

Other observations

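The coefficient of variation was lower in YAP5SA than in control for 8 of the 9 tested members (all but Klf6), and for 61.9% of all tested genes. Control 2 was the lowest control for 7 of the 9 members and for 26.8% of tested genes, and control 4 the highest for 6 of the 9 and for 33.4%. Klf10 had the largest coefficient of variation among the tested members in controls, 18.3% where read counting alone gives 4.14%, and 4.68% in YAP5SA. These are descriptions of 4 libraries a group and were not tested. No KLF value was flagged by Dixon's test (gap over range, critical value 0.829) in the 20 sets of 4 libraries. Klf10 in control 2, at 0.821, and Klf9 in control 4, at 0.804, came close to that value. With 4 values a set, the lack of a flag does not show that no library stood apart.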
